A study of Bos taurus with 20 samples.

Results

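The genes described here encode the complement and coagulation cascades, the proteases, cofactors, receptors, and regulators with which blood plasma opsonizes cells, clots, and dissolves clots. The set was a list of 51 genes without the serpins, and its members were found on the array by gene name, which matched 49 of the 51 through 138 probes, out of 22518 genes or transcripts and 61325 probes in all. Membership rested on gene names and used no expression value. CD46 was carried only by 6 probes named through a RefSeq accession and is described apart from the 49, and TFPI is not analysed here. Bovine ovaries were collected after slaughter, and cells were taken from antral follicles of 3 to 6 mm. The 20 arrays comprised 5 groups of 4 biological replicates: theca cells (TH), scraped from the follicle wall, granulosa cells (GC), cumulus cells (CC), immature oocytes, and CC taken 4 h into in vitro maturation (IVM). The first 4 groups were untreated immature cells of the follicle, and GC and the cumulus-oocyte complexes both came from punctured follicles. The animals' breed and age, and how many of them each replicate pooled, are not given in the sources used here. From every sample 200 ng of total RNA went into Cy3 labelling for a 1-colour array. Every sample was a bulk preparation, in which fewer cells of a type and less RNA per cell cannot be told apart.

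Complement is started by C1, in which C1q recognizes a target and C1r activates C1s, which cuts C4 and C2, by the lectin pathway through MASP proteases, or by the alternative pathway through factors B and D and properdin. All routes meet at C3 and C5, after which C6 to C9 build the membrane attack complex, and CD46, CD55, and CD59 protect the cells of the host. Clotting is started by tissue factor (F3) and runs through factor proteases to thrombin, fibrin, and factor XIII, while thrombomodulin, protein C, and protein S restrain it and plasmin dissolves the clot. Most soluble members are known as products of the liver. Follicular fluid is derived from plasma, and plasminogen activators are long known in the ovulating follicle.

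Expression was read with 60-base probes, and the sequences of 11 probes are printed because they carry the patterns described or because they gave no signal where another probe of the same gene did. They are taken from the array files, 5′ to 3′, in lower case, and each was free of stop codons in at least 1 of the 3 forward frames. Coordinates are those of the annotated transcript on the UMD 3.1 assembly. The CFD probe (CFD-201, chr7:45030310-45032845) followed the TH pattern, the C3 probe (C3-201, chr7:18989689-19025591) the CC pattern, and the VWF probe (VWF-201, chr5:104603432-104727301) was high in TH and in the oocyte. Both KNG1-201 probes (chr1:81097435-81121039), the FGB probe (FGB-201, chr17:2875550-2884552), and the F13B probe (F13B-201, chr16:77848141-77869023) were above background in the oocyte and in no other group. The capitals in KNG1 mark the 34 bases that its 2 probes share, and the reading frame without a stop in probe 4 encodes the last 7 residues of bradykinin, the peptide cut from kininogen. The F13A1 probe (F13A1-201, chr23:48633936-48776698) and C1QC probe 2 (C1QC-201, chr2:130783987-130788357) were above background on all TH arrays. Probe 3 of F8 (F8-201, chrX:38838455-38982287) and probe 1 of CFP (CFP-201, chrX:91441704-91447087) were at background on all 20 arrays.
CFD probe 1: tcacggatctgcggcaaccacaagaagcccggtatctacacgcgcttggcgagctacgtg
C3 probe 2: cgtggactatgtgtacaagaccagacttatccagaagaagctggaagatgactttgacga
VWF probe 3: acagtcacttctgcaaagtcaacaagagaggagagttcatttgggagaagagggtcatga
KNG1-201 probe 4: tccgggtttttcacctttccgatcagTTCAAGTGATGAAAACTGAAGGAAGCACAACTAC
KNG1-201 probe 1: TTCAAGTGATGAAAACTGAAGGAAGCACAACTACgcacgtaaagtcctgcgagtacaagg
FGB probe 1: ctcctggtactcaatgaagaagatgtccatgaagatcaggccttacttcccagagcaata
F13B probe 1: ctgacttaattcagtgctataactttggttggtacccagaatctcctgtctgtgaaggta
F13A1 probe 2: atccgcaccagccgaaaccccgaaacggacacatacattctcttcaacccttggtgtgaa
C1QC probe 2: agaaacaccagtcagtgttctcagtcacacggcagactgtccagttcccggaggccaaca
F8 probe 3: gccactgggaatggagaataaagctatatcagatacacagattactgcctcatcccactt
CFP probe 1: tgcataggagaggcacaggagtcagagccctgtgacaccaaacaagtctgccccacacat

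Sorted by their highest cell type mean, the detected genes formed a TH group, an oocyte group, and a smaller CC group. By the test given below, 46.9% of the members were higher in TH than in the other cell types, against 22.0% of all genes. The share was not above that of all genes in the oocyte (28.6% against 32.9%) or in CC (14.3% against 22.2%). Gene expression values are log2 intensities relative to the 75th percentile of their array, taken as the median of a gene's spots. Detection in a group required 1 probe or more to be well above background on 3 or 4 of its 4 arrays. Of the 49 genes, 39 were detected in at least 1 group and 13 in all 5. There were 31 detected genes in TH, 26 in GC, 24 in CC, 26 in the oocyte, and 25 in CC after IVM. These are 63.3% of the members in TH, 53.1% in GC, 49% in CC, with 53.1% in the oocyte, against 63.5%, 61.3%, 63.5%, and 66.8% of all genes of the array. Among the 39, the highest of the 4 cell type means was in TH for 20 genes, in the oocyte for 12, in CC for 6, and in GC for PROC alone. C6 and THBD were detected in TH and no other cell type, C3 in CC alone, and KLKB1, KNG1, FGB, FGG, F13B, and PLG in the oocyte alone. The shares of all genes with these patterns are not given here, so the counts describe the members only. The 10 genes that reached 3 arrays in no group were MASP2, C8A, C9, VTN, F7, F11, F9, F10, F5, and FGA. C8A was above background on 2 arrays of CC after IVM, FGA on 2 oocyte arrays, F5 on 2 GC arrays, the others on at most 1 array of any group, and F7 and F9 on none.

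**Figure D1:**
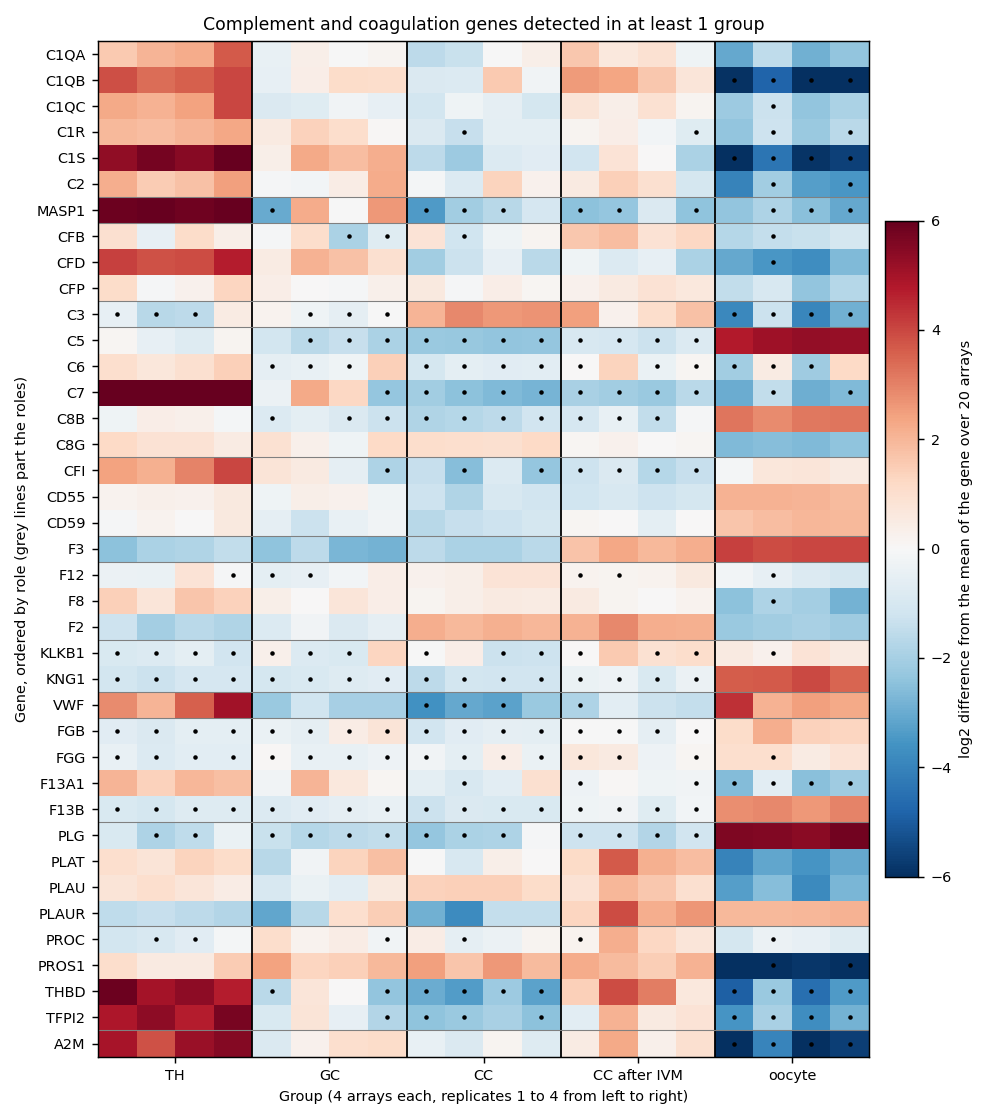
Heat map of the 39 detected genes (rows, ordered by role) on the 20 arrays (columns, 4 per group). Colour is the log2 difference from the gene's mean over the 20 arrays, with differences beyond 6 drawn in the end colours, and a black dot marks an array on which no probe of the gene was well above background. A TH block (C1Q genes, C1S, MASP1, CFD, C7, THBD, TFPI2, A2M) and an oocyte block (C5, C8B, F3, KNG1, F13B, PLG) stand out.

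The arrays had between 49.3% and 68.8% of their probes above background, both extremes in the oocyte, where replicate 2 was lowest, and replicates of a group correlated with r from 0.966 to 0.992 across genes. No spot was saturated. Replicates 1 and 2 of the 4 cell types shared slide 1, and replicates 3 and 4 shared slide 2.

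The cell types were compared with limma fitted to all 22518 genes, and differences with a Benjamini–Hochberg adjusted p under 0.05 are referred to as called. Errors of differences are standard errors (SE). The F-test over TH, GC, CC, and the oocyte called 41 of the 49 members, while it called 71.3% of all genes. Against the mean of the other cell types, TH was higher in 23 members, where 22.0% of all genes were higher, and lower in 8, where 27.9% were lower. The median log2 difference was 0.87 over the members and 0.0008 over all genes. GC was higher in 9 members and lower in 8 (all genes 22.0% and 20.1%), and CC was higher in 7 and lower in 20 (all genes 22.2% and 24.5%). The oocyte was higher in 14 members and lower in 25, where 32.9% of all genes were higher and 38.3% lower. The median log2 difference of all genes was −0.52 for the oocyte, whose arrays were brighter, and quantile normalization brought it to −0.01 with 14 members higher and 24 lower. With normexp background correction GC was higher in 28 and lower in 7, and the oocyte higher in 9 and lower in 38, and quantile normalization gave 7 and 11 for GC. Of the 39 detected members, 37 were called by the F-test and 36 in the oocyte contrast, 30 in that of TH, 27 in that of CC, and 16 in that of GC. The shares of all genes given above include genes that were not detected, so they are not a like base for these counts.

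All 6 classical pathway members were detected in TH, GC, and CC, and all 6 were higher in TH than in the mean of the other cell types. C1S, the C1 protease that cuts C4 and C2, had expression values of 3.49, 3.89, 3.61, and 4.46 in TH, −1.51, 0.45, −0.0007, and 0.33 in GC, and −3.39, −4.01, −2.63, and −2.51 in CC, and was above background on no oocyte array. The groups did not overlap, and TH exceeded GC by 4.05 on the log2 scale (SE 0.47, limma adjusted p = 1.1e-05) and the oocyte by at least 871-fold (adjusted p = 9.8e-12). Where a group had a gene on fewer than 3 arrays, such a bound takes on each of its arrays the lowest signal well above background, or the gene's own value if that was higher. C1QB, a subunit of C1q, was at 2.39, 1.89, 2.11, and 2.53 in TH, −1.96, −1.06, −0.37, and −0.42 in GC, and −2.36, −2.30, 0.08, and −1.67 in CC, and on no oocyte array above background. Its TH arrays lay above all others, by 3.18 against GC (SE 0.54, adjusted p = 0.00034), while GC and CC overlapped. C1QA, the second C1q subunit, was at −1.27, −0.78, −0.58, and 0.84 in TH, −3.26, −2.46, −2.83, and −2.64 in GC, −4.40, −4.16, −2.86, and −2.48 in CC, and −5.88, −4.34, −5.69, and −5.20 in the oocyte. The third, C1QC, was at −2.11, −2.31, −1.95, and −0.35 in TH, −5.24, −5.09, −4.59, and −4.86 in GC, −5.49, −4.64, −4.91, and −5.44 in CC, and −6.54, −5.65, −6.72, and −6.26 in the oocyte. Replicate 4 of TH was the highest of all arrays for both, and TH exceeded GC by 2.35 in C1QA (SE 0.50, adjusted p = 0.0022) and by 3.26 in C1QC (SE 0.38, adjusted p = 9.6e-06). C2, which forms the C3 convertase with C4, was at −2.01, −2.71, −2.45, and −1.74 in TH, −4.28, −4.38, −3.78, and −1.97 in GC, and −4.35, −5.04, −2.87, and −3.96 in CC, and was above background on 2 oocyte arrays. GC replicate 4 and CC replicate 3 of C2 lay near or within the TH range, and TH was above CC by 1.83 (SE 0.56, adjusted p = 0.019) and above the oocyte at least 12.8-fold (adjusted p = 5.2e-07). C1R had a mean of −3.04 ± 0.20 (SD, n = 4) in TH against −4.33 ± 0.58 in GC and −5.93 ± 0.39 in CC, and each TH array lay above every other array.

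In the lectin pathway, MASP1, whose protease cuts C2 and MASP2, was at 1.73, 2.01, 1.68, and 2.16 in TH, −7.20, −1.95, −4.22, and −1.60 in GC, and above background on 1 CC and 1 oocyte array. The TH arrays lay close together, whereas the GC arrays were spread widely and replicate 1 was at background. TH exceeded GC by 5.64 (SE 0.91, adjusted p = 0.00023) and CC at least 155-fold (adjusted p = 4.4e-06). MASP2, the other protease of this pathway, was above background on 1 oocyte array only. In the alternative pathway, CFD (factor D), which cuts factor B, was at 1.89, 1.64, 1.70, and 2.48 in TH, −1.70, −0.10, −0.46, and −1.23 in GC, −4.28, −3.48, −2.67, and −3.83 in CC, and −5.29, −5.69, −5.93, and −4.85 in the oocyte. CFD was thus lower in GC than in TH and lower again in CC without overlap, by 2.80 (SE 0.39, adjusted p = 5.6e-05) and by 2.69 (SE 0.39, adjusted p = 0.00043). CFP, which encodes properdin, the stabilizer of the alternative convertase, had means of −3.46 ± 0.65 in TH, −3.93 ± 0.23 in GC, −3.85 ± 0.29 in CC, with −5.73 ± 0.58 in the oocyte. Only the oocyte stood apart for CFP (−1.98 against the somatic mean, SE 0.26, adjusted p = 4.9e-06), and the difference between TH and GC did not pass the threshold (adjusted p = 0.34). CFB, the protease of that convertase, had means from −4.31 ± 0.73 in TH to −6.17 ± 0.27 in the oocyte with overlapping groups, and its F-test (adjusted p = 0.041) was not called in 17 of 29 alternative settings.

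**Figure D2:**
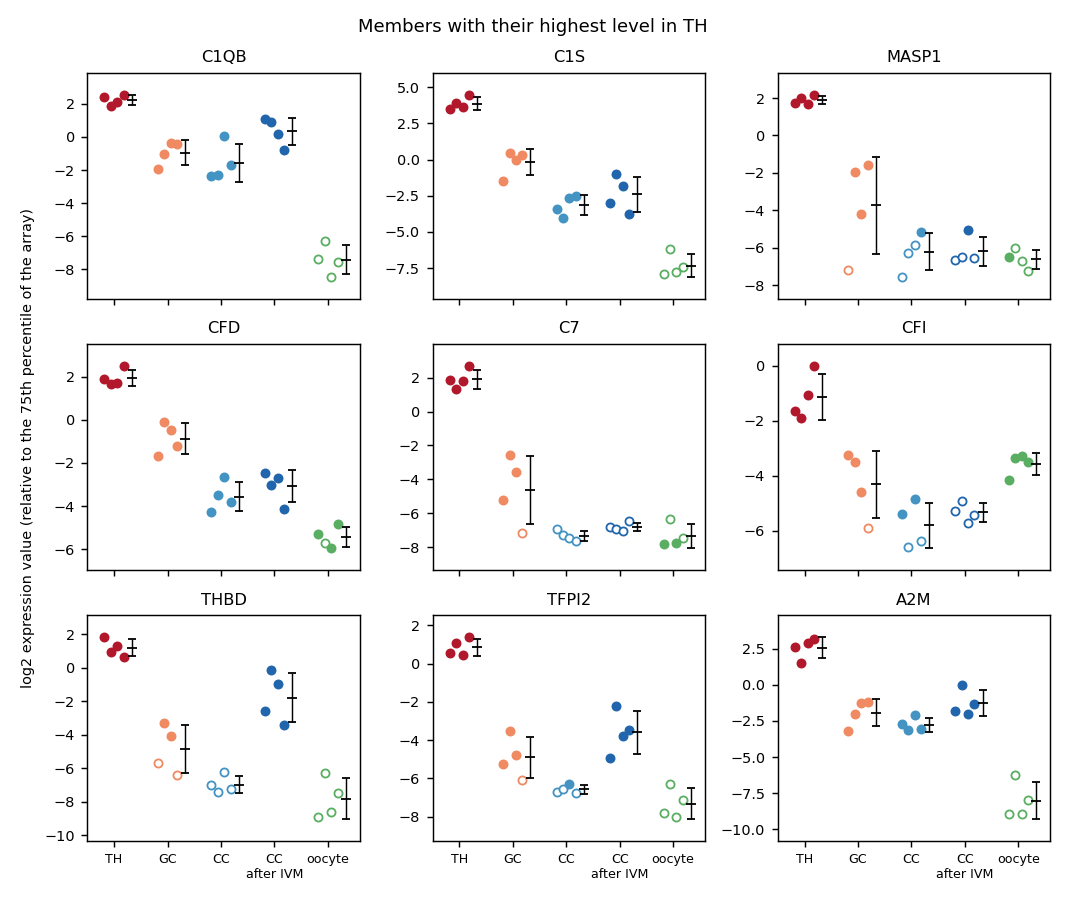
Expression values (log2, relative to the array's 75th percentile) of 9 members with their highest level in TH, for each of the 4 arrays of TH, GC, CC, CC after IVM, and the oocyte. Filled points were well above background, open points were not, and black bars give the mean and SD. All 4 TH points lie above every other point in each panel.

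C3, on which all complement routes converge, had another order. It was at −2.84, −2.0, −2.27, and −2.18 in CC and above background on 1 TH array, at −4.41, on 1 GC array, at −4.66, and on no oocyte array. The 4 CC arrays lay above all other arrays of the 4 cell types, and CC exceeded TH at least 6.78-fold (adjusted p = 0.00015), GC at least 5.93-fold (adjusted p = 0.0044), and the oocyte at least 11.9-fold (adjusted p = 1.9e-07). Without GC replicates 2 and 3 together, and within either slide, the difference between GC and CC in C3 did not pass the threshold. C4A, which supplies C4b to the same convertase and is not among the 51, was at 3.17 ± 0.97 in TH, −0.44 ± 0.45 in GC, −0.66 ± 0.23 in CC, with −5.84 ± 0.50 in the oocyte.

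Of the detected terminal components, C6 and C7 had their highest mean in TH, C5 and C8B in the oocyte, and C8G in CC. C5, from which the attack complex starts, was at −0.45, −0.10, 0.07, and 0.01 in the oocyte, −5.08, −5.66, −5.97, and −5.04 in TH, above background on 1 GC array, and on none of CC. Every somatic array lay far below the oocyte arrays, with a log2 difference of −5.32 for TH against the oocyte (SE 0.23, adjusted p = 1e-11), and the oocyte exceeded CC at least 39.2-fold (adjusted p = 3.5e-13). C7, which anchors the complex in the membrane, was at 1.84, 1.33, 1.84, and 2.69 in TH and −5.20, −2.57, −3.59, and −7.18 in GC, and was above background on no CC array and 2 oocyte arrays. All TH arrays lay far above the highest GC array (log2 difference 6.56, SE 0.72, adjusted p = 5.7e-06), and TH exceeded CC at least 161-fold (adjusted p = 8.9e-08) and the oocyte at least 227-fold (adjusted p = 1.1e-08). C8B, a chain of C8, was at −2.43, −2.81, −2.51, and −2.42 in the oocyte and −5.88, −5.23, −5.35, and −5.75 in TH, and above background on 1 GC and no CC array. The log2 difference of TH from the oocyte was −3.01 (SE 0.21, adjusted p = 2.6e-09) without overlap. C8G, the chain of C8 that belongs to the lipocalins, was detected in every group, with means of 0.54 ± 0.28 in TH, 0.21 ± 0.64 in GC, 0.74 ± 0.09 in CC, with −2.89 ± 0.10 in the oocyte. The somatic cells overlapped in C8G and all were above the oocyte (−3.39 for the oocyte against their mean, SE 0.20, adjusted p = 4.3e-10). C6 was detected on 4 TH arrays through 1 of its 2 probes, and its medians there (−5.76, −6.09, −5.84, and −5.34) were close to the detection limit. Its probe 2 was at −4.20 in TH, while the other probe was above background on no TH array. The call of C6 against the other cell types (adjusted p = 0.03) was lost in 6 of 28 alternative settings, and C9 was above background on TH replicate 4 alone.

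Among the regulators, CFI (factor I), the protease that inactivates C3b and C4b, was at −1.63, −1.89, −1.06, and −0.0098 in TH, −3.26, −3.48, −4.58, and −5.90 in GC, and −4.14, −3.34, −3.30, and −3.50 in the oocyte, and was above background on 2 CC arrays. TH was highest without overlap (by 3.16 against GC, SE 0.56, adjusted p = 0.00054), and the oocyte arrays lay within the range of GC. CD55, which speeds the decay of convertases, was at 0.29, 0.28, 0.23, and 0.06 in the oocyte and had means of −1.48 ± 0.16 in TH, −1.79 ± 0.32 in GC, and −3.10 ± 0.36 in CC. CD59, which blocks C9, was at −0.85, −0.67, −0.52, and −0.59 in the oocyte, with means of −2.33 ± 0.31 in TH, −3.16 ± 0.47 in GC, and −3.85 ± 0.27 in CC. In both, each oocyte array lay above every somatic array, by 2.34 in CD55 (SE 0.16, adjusted p = 2.1e-09) and 2.46 in CD59 (SE 0.19, adjusted p = 8.2e-09) against the somatic mean, and CC was the lowest. CD46, the membrane cofactor of factor I, was at 1.12, 1.68, 1.18, and 0.39 in TH, 1.04, 1.07, 1.21, and 1.32 in GC, 0.72, 0.46, 0.85, and 0.14 in CC, and −1.13, −0.48, −0.65, and −0.55 in oocytes. All oocyte arrays lay below every somatic array of CD46 (log2 difference −1.63, SE 0.20, adjusted p = 2.2e-06), and its probes gave calls of opposite direction in TH. VTN (vitronectin) was above background on 1 CC array only.

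Tissue factor, F3, which starts clotting by binding factor VII, was at 5.26, 5.07, 5.19, and 5.19 in the oocyte, −1.26, −0.72, −0.63, and −0.31 in TH, −1.26, −0.40, −1.56, and −1.67 in GC, and −0.42, −0.73, −0.72, and −0.43 in CC. The oocyte arrays lay close together and far above every array of the other cell types, with a difference of 6.02 from the somatic mean (SE 0.21, adjusted p = 5.6e-13). Its plasma partner F7 was above background on none of the 20 arrays, nor was F9, and F11 and F10 were above background on 1 array each. F2 (prothrombin) was at 0.81, 0.56, 0.76, and 0.60 in CC, −2.19, −1.58, −2.24, and −1.93 in GC, −2.63, −3.42, −3.01, and −3.18 in TH, and −3.61, −3.47, −3.30, and −3.52 in the oocyte. The log2 difference of GC from CC was −2.67 (SE 0.19, adjusted p = 8.6e-07), a call that held in all 28 alternative settings, and each CC array lay above every array of the other cell types. F8, the cofactor of factor IX, was at −2.80, −3.47, −2.52, and −2.82 in TH, −3.87, −4.19, −3.51, and −3.83 in GC, −4.04, −3.85, −3.67, and −3.73 in CC, and −6.69, −6.05, −6.24, and −7.03 in the oocyte. Its TH arrays were the highest and its oocyte arrays the lowest without overlap (TH above GC by 0.95, SE 0.24, adjusted p = 0.0082). F12 was above background on 3 TH, 2 GC, 4 CC, and 3 oocyte arrays, and the cofactor F5 was above background on 2 GC, 1 CC, and 1 oocyte array.

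VWF, which carries factor VIII and tethers platelets, was at −0.54, −1.33, 0.18, and 1.62 in TH and 1.0, −1.32, −0.95, and −1.11 in the oocyte, against −5.63, −4.58, −5.39, and −5.37 in GC, and was above background on 1 CC array. TH and the oocyte overlapped (difference 0.58, SE 0.59, adjusted p = 0.38), and both lay above all GC and CC arrays, with 5.22 between TH and GC (SE 0.59, adjusted p = 7.5e-06). Of the contact system, KNG1 (kininogen) was at −2.65, −2.63, −2.35, and −2.78 in the oocyte and above background on none of the 16 somatic arrays, at least 7-fold above CC (adjusted p = 4.1e-13) and 5.38-fold above GC (adjusted p = 1e-12). KLKB1 (plasma prekallikrein), which releases bradykinin from it, was above background on 3 oocyte arrays at −5.75 ± 0.21, and its call (adjusted p = 0.023) was lost in 6 of 28 settings and reversed in 2.

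Among the fibrin genes, F13B, the carrier subunit of factor XIII, was above background on every oocyte array (−3.84, −3.71, −4.02, and −3.62) and on no other array, at least 3.07-fold above CC (adjusted p = 5.1e-12). With normexp its oocyte contrast was 0.29 in place of 3.65 (adjusted p = 0.11), and neither that contrast nor its F-test was called. F13A1, the subunit that cross-links fibrin, went the other way, with means of −3.83 ± 0.31 in TH, −4.99 ± 1.00 in GC, and −5.95 ± 0.85 in CC and on no oocyte array above background, at least 4.21-fold below TH (adjusted p = 1e-05), and GC replicate 2 lay within the TH range. The fibrinogen chains FGB and FGG were above background in the oocyte on 4 and 3 arrays and in no somatic cell type, at means of −5.25 ± 0.48 and −5.76 ± 0.24, while FGA reached 2 oocyte arrays. With normexp background correction the oocyte contrasts of FGB and FGG changed sign, to −0.30 and −0.99, so their direction depended on how background was treated.

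**Figure D3:**
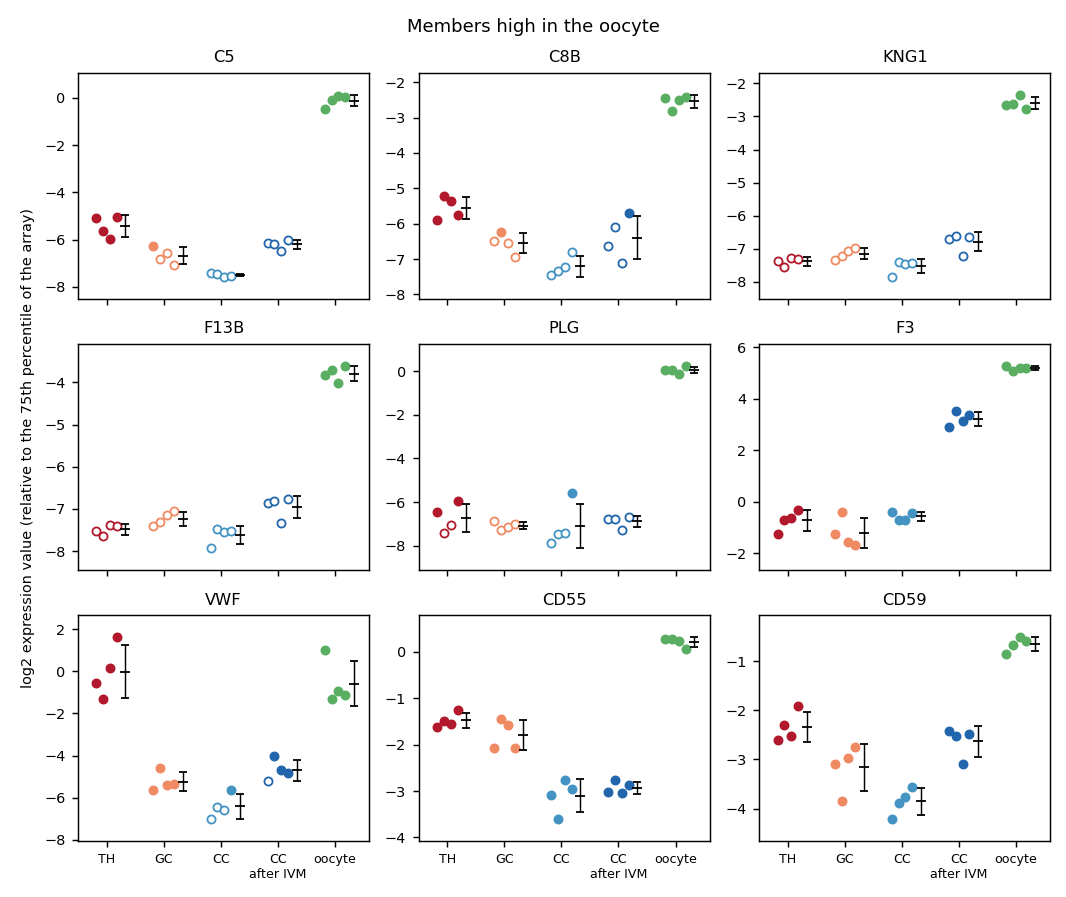
Expression values (log2, relative to the array's 75th percentile) of 9 members high in the oocyte, for each of the 4 arrays of TH, GC, CC, CC after IVM, and the oocyte. Filled points were well above background, open points were not, and black bars give the mean and SD. VWF is also high in TH, and F3 is also high in CC after IVM.

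The plasmin system was split between cells. PLG (plasminogen) was at 0.04, 0.03, −0.14, and 0.22 in the oocyte, and above background on 2 TH, no GC, and 1 CC array. The oocyte exceeded TH at least 40.1-fold (adjusted p = 5.3e-10), GC at least 33.6-fold (adjusted p = 3.2e-10), and CC at least 43.7-fold (adjusted p = 3e-10). PLAT (tissue plasminogen activator) was at 3.65, 3.41, 3.97, and 3.76 in TH, 1.0, 2.43, 3.99, and 4.45 in GC, 2.62, 1.68, 2.99, and 2.68 in CC, and −1.38, −0.46, −0.87, and −0.42 in the oocyte. PLAU (urokinase) was at 0.21, 0.42, 0.15, and −0.11 in TH, −1.52, −0.96, −1.21, and 0.04 in GC, 0.84, 0.89, 0.85, and 0.56 in CC, and −3.84, −3.14, −4.38, and −3.29 in the oocyte. Each oocyte array lay below every somatic array in both, with a log2 difference of −3.84 in PLAT (SE 0.46, adjusted p = 1.8e-06) and −3.68 in PLAU (SE 0.25, adjusted p = 2.2e-09), and PLAU was lower in GC than in CC, with a log2 difference of −1.70 (SE 0.31, adjusted p = 0.0025). PLAUR, the urokinase receptor, was at 3.35, 3.37, 3.40, and 3.50 in the oocyte, −0.10, 0.0084, −0.16, and −0.34 in TH, −1.73, −0.24, 2.42, and 2.87 in GC, and −1.49, −2.37, −0.04, and −0.02 in CC. Each oocyte array was above every array of TH, GC, and CC, with a difference of 3.50 from the mean of these 3 cell types (SE 0.65, adjusted p = 0.00017), and the GC arrays were spread from −1.73 to 2.87 with replicates 3 and 4 high.

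Of the anticoagulants, THBD (thrombomodulin), the endothelial receptor that turns thrombin towards protein C, was at 1.82, 0.94, 1.30, and 0.64 in TH and −5.69, −3.32, −4.06, and −6.44 in GC, where 2 arrays were above background, and on no CC or oocyte array. TFPI2, a Kunitz inhibitor of plasmin and tissue factor complexes, was at 0.53, 1.07, 0.42, and 1.38 in TH and −5.24, −3.53, −4.78, and −6.07 in GC, and above background on 1 CC and no oocyte array. TH exceeded CC at least 96-fold in THBD (adjusted p = 1.2e-07) and at least 76.7-fold in TFPI2 (adjusted p = 1e-08), and in both GC replicates 2 and 3 were higher than replicates 1 and 4. PROS1 (protein S), the cofactor of protein C, was at 2.29, 1.76, 1.77, and 2.76 in TH, 3.65, 2.50, 2.64, and 3.14 in GC, and 3.67, 2.90, 3.84, and 3.12 in CC, and above background on 2 oocyte arrays. All somatic arrays lay far above the oocyte, which CC exceeded at least 327-fold (adjusted p = 8.5e-12), and TH was below CC with a log2 difference of −1.24 (SE 0.37, adjusted p = 0.018). PROC (protein C) itself was close to the detection limit in all cells. A2M, the broad protease inhibitor, was at 2.65, 1.52, 2.89, and 3.20 in TH, −3.17, −2.03, −1.29, and −1.19 in GC, and −2.74, −3.15, −2.12, and −3.07 in CC, and on no oocyte array above background, with TH 4.48 above GC (SE 0.58, adjusted p = 2.9e-05) and at least 353-fold above the oocyte (adjusted p = 1.8e-10).

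Many markers of other cells of the follicle wall were highest in TH, as the TH group was. All 6 fibroblast and smooth muscle markers and 5 of 6 endothelial markers had their highest mean in TH. PECAM1 was at 0.25 ± 0.31 in TH and −5.37 ± 1.28 in GC, and EMCN at 1.60 ± 0.38 and −4.88 ± 1.83, but CDH5, a defining endothelial gene, was above background on 1 TH array only. The mean of the 6 endothelial markers ran from −1.95 to −1.04 over the TH arrays, from −5.71 to −4.34 over GC, from −6.16 to −5.88 over CC, and from −5.63 to −4.58 over the oocyte arrays. Of 8 macrophage and leukocyte markers 6 were detected in TH, their mean ran from −3.15 to −2.29 there, from −5.02 to −4.09 in GC, from −5.97 to −4.72 in CC, and from −5.46 to −4.09 in the oocyte, and PTPRC was detected in TH alone. CSF1R and CD3E had higher means in the oocyte than in TH. Of the 4 theca markers 2 had their highest mean in TH. CYP17A1, which defines steroidogenic theca cells, was detected in TH alone, at −0.22 ± 0.56, and INSL3 was at 8.42 ± 0.45 in TH but was detected in every group. STAR was at 3.43 ± 0.11 in the oocyte against 2.27 ± 0.34 in TH, and NR5A1 at −0.25 ± 0.27 in CC against −0.44 ± 0.45 in TH. The theca mean ran from 2.35 to 2.65 over the TH arrays, from −1.20 to 0.092 over GC, from −1.62 to −1.12 over CC, and from −3.29 to −2.06 over the oocyte arrays. The 6 oocyte markers were highest in the oocyte, where their mean ran from 5.14 to 5.53, but all 6 were also detected in CC at a mean from −3.61 to −1.38. GC and CC were high in the 4 granulosa and cumulus markers (from 2.70 to 4.46 in GC and from 3.99 to 4.40 in CC). In GC, the endothelial mean was −4.34 and −4.55 on replicates 2 and 3 against −5.08 and −5.71 on replicates 1 and 4. On the same replicates, the fibroblast and smooth muscle mean was −0.19 and −0.41 against −1.88 and −1.70. The theca mean was 0.09 and −0.12 against −1.20 and −0.38. The macrophage and leukocyte mean of GC was highest on replicates 3 and 4 (−4.24 and −4.09). Replicates 2 and 3 were also the highest of GC for C1R, CFD, C7, F13A1, THBD, and TFPI2. They were not for the other members with their highest mean in TH, among them C1QB, C1S, MASP1, CFI, VWF, and A2M. The part of these other cells in the members' differences was not tested. Of 6 liver markers 4 (TTR, APOA2, HPX, and AHSG) were detected in TH, GC, and CC and 5 in the oocyte. ALB was detected in no group, and APOB in the oocyte only, at −5.27 ± 0.35. The mean of the 6 ran from −4.06 to −3.81 over the TH arrays, from −4.73 to −4.07 over GC, from −4.71 to −4.35 over CC, and from −4.83 to −4.33 over the oocyte arrays. After IVM it ran from −3.81 to −2.63, and AHSG was 3.73 higher than in CC (SE 0.52, adjusted p = 0.00056).

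GC and CC derive from the same layer, and 10 of the 49 members were called between them. Of these, 7 were higher in GC and 3 lower, where 4.61% of all genes were higher and 5.28% lower. The 3 lower in GC were C3, F2, and PLAU. CFD, C1S, C1R, CD55, C7, TFPI2, and C5 were higher in GC, and C5 was above background on 1 GC array and no CC array. C1S was 2.95 higher in GC (SE 0.47, adjusted p = 0.00092) and CD55 1.31 higher (SE 0.20, adjusted p = 0.00059), both without overlap. GC replicates 2 and 3 had the higher endothelial, fibroblast and smooth muscle, and theca marker means. Without them, 5 members were called in a fit with 2 GC arrays. C1R, C5, C7, and TFPI2 were no longer called, nor were C3 and PLAU, which were lower in GC. The call was lost in 14 of 28 alternative settings for C5, in 12 for TFPI2, and in 11 for C7. With 2 arrays per group, 1 member was called within slide 1 and 3 within slide 2.

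After 4 h of IVM, CC had higher values of several members that act at the cell surface, F3, PLAUR, and THBD among them. Of the 49 members 24 were higher after IVM and 2 lower, where 30.3% of all genes were higher and 15.6% lower. Of the 24 genes 11 were detected in neither group (C5, C6, C8A, C9, F11, F10, KLKB1, KNG1, FGA, FGB, and F13B), and the median log2 difference of all genes was 0.37, so the members detected before or after IVM are described. There were 27 of them, with 13 higher and 2 lower, where 21.8% of the 14750 genes detected before or after IVM were higher and 23.5% lower, and over those genes the median difference was 0.01. Over all 49 members, quantile normalization gave 12 higher and 1 lower, in place of 24 and 2. All 4 arrays after IVM were on slide 3, which held no other array, so IVM and slide cannot be told apart.

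F3 was at −0.42, −0.73, −0.72, and −0.43 in CC and 2.88, 3.51, 3.14, and 3.36 after IVM. The groups did not overlap, and F3 rose by 3.80 on the log2 scale (SE 0.20, limma adjusted p = 3.5e-06). PLAUR was at −1.49, −2.37, −0.04, and −0.02 before and 2.71, 5.34, 3.59, and 4.08 after, a rise of 4.91 (SE 0.65, adjusted p = 0.00039), with replicate 2 the highest after IVM. PLAT was at 2.62, 1.68, 2.99, and 2.68 and 3.82, 6.31, 4.79, and 4.49, a rise of 2.35 (SE 0.50, adjusted p = 0.0054), again without overlap and with replicate 2 highest. THBD, on no CC array above background, was at −2.62, −0.15, −0.98, and −3.41 after IVM and rose at least 12.3-fold (adjusted p = 0.00026). TFPI2, above background on 1 CC array, was at −4.94, −2.20, −3.77, and −3.50 after IVM and rose at least 3.51-fold (adjusted p = 0.0012). In both anticoagulants the arrays after IVM stood above every CC array. The 5 calls of F3, PLAUR, PLAT, THBD, and TFPI2 held in all 17 alternative settings, with a log2 rise between 3.21 and 3.91 for F3 and between 4.26 and 5.32 for PLAUR. PLAU, the ligand of PLAUR, had means of 0.79 ± 0.15 and 0.81 ± 0.53 and did not pass the threshold (adjusted p = 0.95).

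**Figure D4:**
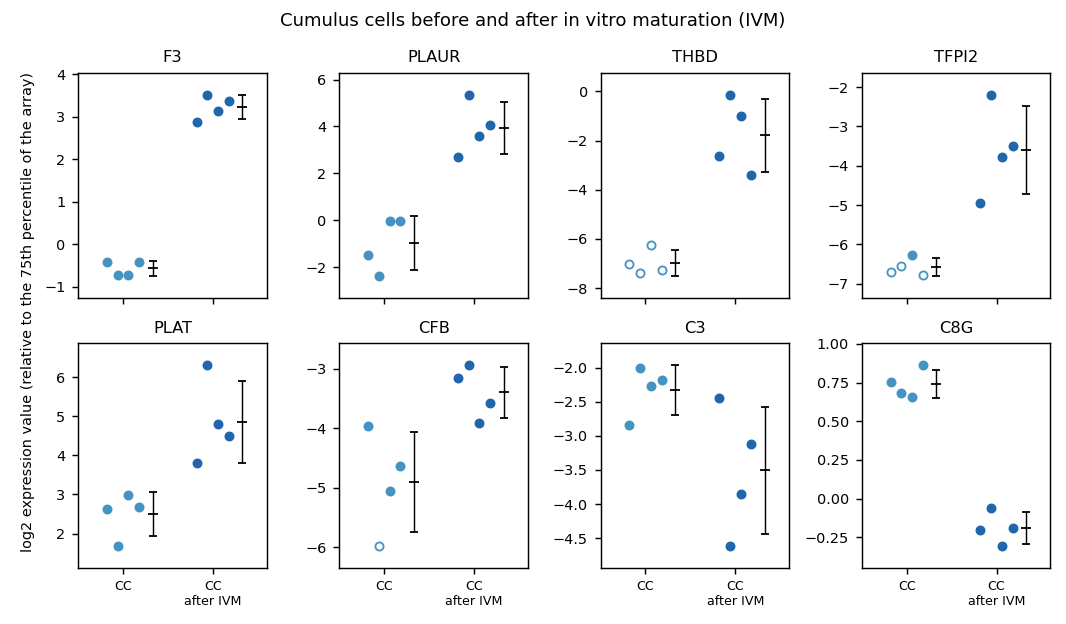
Expression values (log2, relative to the array's 75th percentile) of 8 members on the 4 CC arrays and the 4 arrays of CC after 4 h of IVM. Filled points were well above background, open points were not, and black bars give the mean and SD. F3, PLAUR, THBD, TFPI2, PLAT, and CFB are higher and C8G is lower after IVM without overlap, whereas the C3 groups overlap.

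In complement, CFB was at −3.96, −5.98, −5.05, and −4.64 in CC and −3.16, −2.94, −3.91, and −3.57 after IVM, a rise of 1.51 (SE 0.40, adjusted p = 0.016). CD59 was at −4.21, −3.89, −3.75, and −3.56 and −2.42, −2.52, −3.10, and −2.48, a rise of 1.22 (SE 0.23, adjusted p = 0.0028). Neither gene overlapped between the groups, and both calls held in all 17 settings. C8G was at 0.76, 0.68, 0.66, and 0.86 before and −0.20, −0.06, −0.31, and −0.19 after, and fell without overlap (log2 difference −0.93, SE 0.17, adjusted p = 0.0023), also in all 17 settings. C3 was at −2.84, −2.0, −2.27, and −2.18 and −2.45, −4.62, −3.85, and −3.11, a log2 difference of −1.18 (SE 0.42, adjusted p = 0.045) with replicate 1 within the CC range, and this call was lost in 12 of 17 settings. C1QB went from −2.36, −2.30, 0.08, and −1.67 to 1.09, 0.88, 0.15, and −0.76, C1QA from −4.40, −4.16, −2.86, and −2.48 to −1.20, −2.17, −1.92, and −3.08, and C1QC from −5.49, −4.64, −4.91, and −5.44 to −3.59, −4.0, −3.47, and −4.20. All 3 were higher after IVM (adjusted p = 0.025, 0.048, and 0.0044), but CC replicate 3 of C1QB and replicates 3 and 4 of C1QA lay within the range after IVM, and the calls of C1QA and C1QB were lost in 9 and 5 settings. The call of C1QC was lost with its brightest probe, at a log2 difference of 0.42 (adjusted p = 0.18). Its probe 1 alone differed by 0.65 (adjusted p = 0.15), and its probe 2 was above background on no CC array and on 1 after IVM. A2M went from −2.74, −3.15, −2.12, and −3.07 to −1.81, −0.0018, −1.99, and −1.34 (adjusted p = 0.022), VWF from −7.01, −6.44, −6.59, and −5.64 to −5.23, −4.02, −4.70, and −4.83 (adjusted p = 0.0039), and PROC from −5.55, −6.53, −6.35, and −5.85 to −5.77, −3.82, −4.74, and −5.29 (adjusted p = 0.04). PROC overlapped and its call was lost in 11 settings, that of A2M in 3, and that of VWF with the brightest probe (0.66, adjusted p = 0.070), and VWF was above background on 3 arrays after IVM and 1 before. Of the 8 macrophage and leukocyte markers 4 were detected in CC and 4 after IVM, with a mean from −5.97 to −4.72 before and from −4.95 to −3.72 after. Of the 6 endothelial markers 2 were detected before and 1 after, with a mean from −6.16 to −5.88 and from −5.82 to −4.77. Markers that were not detected enter both list means with values near background. The lowest signal well above background itself ran from −5.72 to −5.26 over the CC arrays and from −5.12 to −4.58 after IVM. Among single markers, CD68 rose after IVM with adjusted p = 0.0019, CD14 with adjusted p = 0.043, and KDR with adjusted p = 0.0045, and TEK was lower. PTPRC and CDH5 were above background on no CC array before or after IVM. The part of such cells in the C1Q genes was not tested.

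Probes of the same gene did not always show the same pattern. In 11 of the 49 members, in the group with the highest level, at least 1 probe was above background on 3 or more arrays while another was above background on none. The 138 probes had 114 distinct sequences, and some of the others shared long runs of bases, so that probes of a gene were often not independent. Of the 4 C1QA probes, probes 1 and 4, which share 55 bases and have no open forward frame, were above background on all 20 arrays, while C1QA probe 2 was above background on none. FGB probe 1 was above background on all 4 oocyte arrays and at least 7.06-fold above TH there, whereas FGB probe 2, which has no open forward frame, was at background on all 20 arrays. The 2 KNG1-201 probes were above background on 4 oocyte arrays and the 2 KNG1-202 probes on 3, with at least 27.3-fold over TH for probe 4 and 2.12-fold for probe 2. In C8B, both C8B-202 probes were above background on all 4 oocyte and all 4 TH arrays. C8B-201 probe 3, whose forward frame is open, was above background on no oocyte or TH array, and C8B-201 probe 1, which shares 34 bases with a C8B-202 probe, on 3 oocyte arrays and no TH array. Probes of the same gene gave calls of opposite direction in 2 of the 49 members. These were C8B, in the TH and GC contrasts, and F8, after IVM. F13A1 probe 2 was above background on all TH arrays and on no oocyte array, and F13A1 probe 1 on no array of either. The values of C1QA, C2, C6, C8B, CFP, F8, F13A1, FGB, FGG, and PROC given above as gene values are medians over all probes, those at background included.

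**Figure D5:**
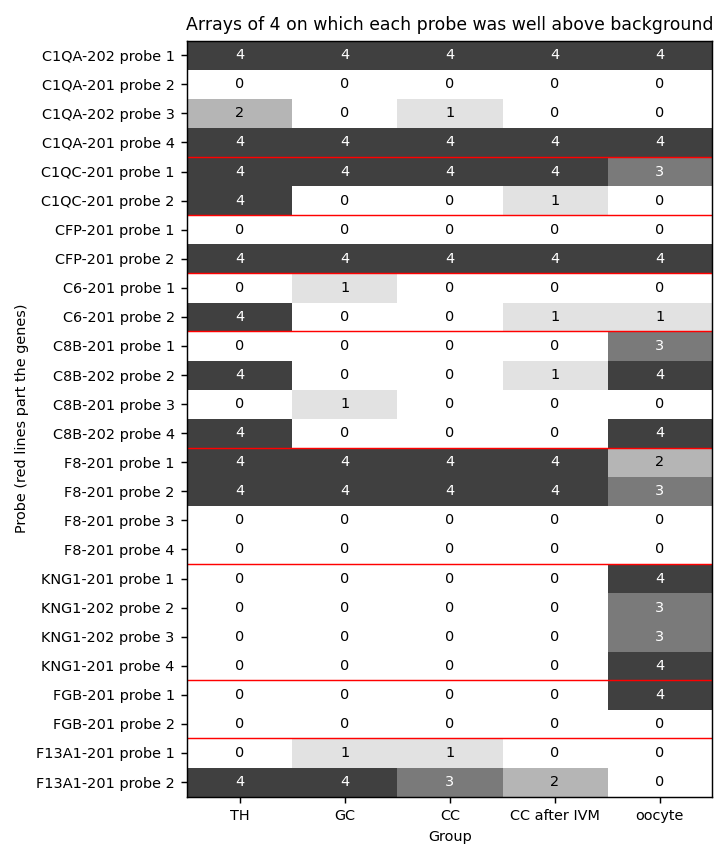
Number of arrays, of 4 per group, on which each probe of 9 members was well above background (columns, groups, rows, probes labelled by transcript and probe number). In C1QA, CFP, C6, C8B, F8, FGB, and F13A1 some probes have 0 in the group in which others have 4.

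Several members lie next to each other in the genome, and neighbours did not always share a pattern. C1QA, C1QB, and C1QC lie between 130769172 and 130795743 on chromosome 2 (UMD 3.1), and C1R and C1S between 103737161 and 103779250 on chromosome 5, and these 5 genes were highest in TH. On chromosome 20, C6, C7, and C9 lie between 33328558 and 35158959, and in each TH had the highest mean, although C9 was detected in no group. Of FGA, FGB, and FGG, between 2823021 and 2884552 on chromosome 17, FGB and FGG were detected in the oocyte alone and FGA in no group. The direction of the oocyte contrasts of FGB and FGG depended on how background was treated. C8B was detected in the oocyte and TH while C8A, beside it on chromosome 3, was not, and on chromosome 27 KLKB1 was detected in the oocyte while F11 was not. MASP1 and KNG1, within 80596924 and 81121112 of chromosome 1, were opposite, with MASP1 in TH and KNG1 in the oocyte.

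Another 45 genes of these pathways, which are not members, were listed as receptors, regulators, and cofactors, and 36 of them were on the array and 27 detected in a cell type. In TH, 23 of the 36 were higher than in the mean of the other cell types and 5 lower, where 22.0% and 27.9% of all genes were, among them CD93 at 2.52 ± 0.40 and C4A, whose log2 difference was 5.49 (SE 0.33, adjusted p = 3e-09). In the oocyte 7 were higher and 23 lower (all genes 32.9% and 38.3%). The 3 with the largest rise there were CPB2, which protects fibrin from plasmin (at −0.51 ± 0.11), HRG, a plasma protein that binds plasminogen (at −1.96 ± 0.12), and F2RL1, a receptor cut by trypsin-like proteases (at −3.67 ± 0.32). CPB2 was above background on 1 TH array and no GC or CC array, and HRG and F2RL1 on no somatic array of the 3 cell types. TGM2 and C4A were among the lower genes, with TGM2 at −5.23 ± 0.36 there and 5.39 ± 0.06 in TH. CC was higher in 7 and lower in 10 (all genes 22.2% and 24.5%), with TGM2 (2.75), CLU (2.38), and S100A10 (1.43) highest in log2 difference and COLEC12 and CD93 among the lower genes. GC was higher in 7 and lower in 5 (all genes 22.0% and 20.1%), led by CD36 (2.16), ITGB2 (1.38), and CLU (1.17), with CPB2, PROCR, and COLEC12 lowest. Between GC and CC, 3 were higher in GC and 2 lower (all genes 4.61% and 5.28%). COLEC12 (1.67) and ANXA2 (1.18) were among the genes higher in GC, and TGM2 and CLU lower. After IVM, 21 of the 36 were detected in CC before or after, of which 4 rose and 5 fell, against 21.8% and 23.5% of the genes detected before or after IVM. F2RL1 rose from background on all 4 CC arrays to −2.82 ± 1.06 (adjusted p = 0.00022), ANXA2, a receptor of plasminogen and PLAT, rose by 1.53 (SE 0.30, adjusted p = 0.0041), and GAS6 by 1.45 (SE 0.41, adjusted p = 0.020). CD36 fell by 1.28, COLEC11 by 1.24, and PROCR, the endothelial receptor of protein C, by 1.18 (adjusted p = 0.0069).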

How the data were processed

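The 20 samples were run on a custom 60K Agilent 1-colour array, and the authors deposited each array's scanner intensities (Feature Extraction 10.7.3.1) and a log2 table, whose values equal log2 of the median spot signal. Probes carry the gene names of the array's design, and coordinates are on UMD 3.1. Expression was computed from the processed intensity on the log2 scale by subtracting the array's 75th percentile and taking the median of a gene's spots. Groups were fitted with limma 3.58.1 in R 4.3.3 over 22518 genes, adjusted p-values (Benjamini–Hochberg) were called at 0.05, and the steps were tested on simulated data. Each cell type was set against the mean of the others on 16 arrays, and CC after IVM against CC. Control spots were left out.

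The methods state 4 biological replicates, while the labels only number them, so p-values cover the spread between these samples, and 4 arrays per group limit the precision. The members and lists were chosen with earlier results of these data known. Values in every array are given for members called by the F-test whose highest cell type mean lay at least 4 log2 units above the lowest, for members called after IVM, and for members whose probes disagreed in direction, and other pathway genes are named for the 3 largest called contrasts in each direction, of which 1 gene is not reported here. Alternatives were quantile normalization, a percentile over probes above background on all arrays, normexp correction of the background with an offset of 50, the brightest probe, the deposited table, a filter on dim genes, a fit of all 20 arrays, replicate or slide as a block, each slide alone, the methods' analysis of variance, and leaving out each array. A fit without GC replicates 2 and 3 was added after seeing the data.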

Additional observations from a re-analysis of the deposited data

Results flagged for a closer look

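In 4 of 132 sets of 4 arrays tested, 1 array lay far from the other 3 by Dixon's test, which chance alone does in about 1 of 20 such sets. CD59 was at −3.10 on replicate 3 of CC after IVM, against −2.52 to −2.42 on the others. F2 was at 1.53 on replicate 2 of CC after IVM, against 0.70 to 0.82. VWF was at 1.00 on oocyte replicate 1, against −1.32 to −0.95. PLAU was at 0.56 on CC replicate 4, against 0.84 to 0.89.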

How the results depend on the processing

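Over the 49 members, the counts of the F-test and of the TH, CC, and oocyte contrasts stayed within 1.5 times under each alternative run. GC against the other cell types, with 17 called, had 35 with normexp, 29 with the deposited table, and 9 within slide 1. GC against CC, with 10, had 1 within slide 1, 3 within slide 2, and 5 without GC replicates 2 and 3. CC after IVM against CC, with 26, had 13 with quantile normalization, 44 with normexp, and 15 with the filter on dim genes. Leaving out 1 array gave 37 to 43 in the F-test, 30 to 33 in TH, 14 to 24 in GC, 25 to 28 in CC, 38 to 44 in the oocyte, 7 to 13 between GC and CC, and 14 to 23 after IVM, where 14 were called without CC replicate 1, 15 without CC replicate 3, and 16 without replicate 4 after IVM. Direction reversed with normexp for FGG in TH (0.074 from −0.76), F13B in GC (0.26 from −0.94), FGB in the oocyte (−0.30 from 1.94), FGG in the oocyte (−0.99 from 1.20), and KLKB1 in the oocyte (−1.0 from 1.02), and with the deposited table for FGG (−0.14) and KLKB1 (−0.10) in the oocyte. The cause was not tested. Of the detected calls, 29 of 37 in the F-test, 22 of 30 in TH, 5 of 16 in GC, 19 of 27 in CC, 29 of 36 in the oocyte, 1 of 10 between GC and CC, and 8 of 15 after IVM held in every alternative run.

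With the replicate number as a block, the counts were 39, 31, 18, 27, and 40 for the F-test, TH, GC, CC, and the oocyte, 10 between GC and CC, and 17 after IVM. Among the detected members, the block removed the call of C5 between GC and CC, the F-test call of CFB, and the calls of C1QA, C3, and PROC after IVM. Deviations of arrays with the same number correlated from −0.26 to 0.44 across the cell types (median 0.12, against −0.02 for other numbers), with 13 of 24 pairs over 0.1, and from −0.22 to −0.03 between CC before and after IVM. All 4 pairs of TH and GC were over 0.1, from 0.20 to 0.44. Between TH and GC the same 21 of the 49 members were called with and without the block, where 6107 and 5931 of all 22518 genes were called. The labels do not say what a number marks, and the fits are given without the block.

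Members near background carry little signal, and on oocyte replicate 2 the lowest signal above background was at −4.02, against −6.84 on the oocyte array where it was lowest.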
